A study of Mus musculus with 12 samples.

Results

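Mitochondrial carriers of the SLC25 family were followed in macrophages and livers of mice whose myeloid cells lack Tshr, the receptor of thyroid-stimulating hormone (TSH). The family was chosen by gene name: 52 of the 55335 genes in the count table had a symbol that starts with Slc25a or were Ucp1, Ucp2, Ucp3, Mtch1 or Mtch2, after 1 row of a pseudogene was left out. Slc25a25 was picked from its counts in both genotypes, so its genotype differences are given as a description with no test. All mice were male C57BL/6N littermates. Tshr f/f mice carry loxP sites around exon 10 of Tshr up to its stop codon, and Tshr MKO mice carry the same alleles with Lyz2-Cre, which is active in monocytes, macrophages and neutrophils. Bone marrow-derived macrophages (BMDMs) of both genotypes came from mice 6 weeks old by the labels and 6 to 8 weeks by the methods, and had 7 days of M-CSF (10 ng/mL) and then TSH (1 ng/mL) for 24 h, and no library without TSH was analysed here. The livers came from mice on a high-fat diet that began at 6 weeks of age and lasted 9 weeks, fasted for 8 h and given insulin (1.5 U/kg) 5 min before collection. Each of the 4 groups had 3 libraries of strand-specific RNA-seq. A supplementary table of the study lists the counts of these livers under the opposite genotype headings, so livers are named here by their GEO labels, and every direction in liver rests on those labels. The methods give n = 3 mice per group for the RNA of livers and BMDMs, while the labels tie no library to an animal.

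Most SLC25 carriers sit in the inner membrane of mitochondria and exchange solutes between the cytosol and the matrix. Slc25a17 is a carrier of peroxisomes, and Mtch1, Mtch2 and Slc25a46 are relatives in the outer membrane of mitochondria. The family shares a fold built from a repeated pair of membrane helices, and carriers of the inner membrane are imported through the TOM pore, small TIM chaperones and the TIM22 complex. In liver they feed the urea cycle, gluconeogenesis and fatty acid oxidation. In macrophages they carry citrate, adenine nucleotides and iron. Slc25a25, Slc25a24, Slc25a23 and Slc25a41 encode the exchangers of ATP-Mg for phosphate, which set the size of the adenine nucleotide pool in the matrix. The first 3 of them are regulated by calcium through EF hands.

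The libraries held 28962878 to 40954211 counts. In BMDMs 3 counts in a library corresponded to 0.0687 to 0.115 CPM and in liver to 0.0714 to 0.106 CPM, a limit that covers counting error only. Counts of Tshr were 0, 0 and 2 in the Tshr f/f BMDM libraries, 0, 0 and 5 in the Tshr MKO ones and 0 in every liver, so its deletion could not be checked. Hepatocyte markers summed to at most 0.235 CPM in BMDMs and to 83940 to 108400 CPM in liver, with Alb, Ttr, Cps1, Tat, Cyp2e1 and Serpina1a at 0 in all BMDMs. The 8 macrophage markers summed to 15020 to 17580 CPM in BMDMs from Tshr f/f mice and to 20250 to 29970 CPM in Tshr MKO BMDMs, without overlap, although Lyz2 and Mrc1 were higher and Adgre1 and Cd14 lower without overlap. Sums of 5 cholangiocyte markers (227 to 558 against 832 to 1277 CPM, of which Spp1 did not overlap) and of 5 dendritic cell markers (11.3 to 17.4 against 8.40 to 9.25 CPM, of which Ccr7 did not) also differed without overlap in BMDMs. In the livers the macrophage markers summed to 128 to 336 and 140 to 313 CPM for the Tshr f/f and Tshr MKO labels. Other lists had sums that overlapped between genotypes. Among their genes, Ttr was higher and Apoa1, Tat and the dendritic marker Flt3 lower without overlap in liver, and the neutrophil markers Mpo and Ngp were higher and Camp, Marco and Timd4 lower in BMDMs. The part of these markers in the results below was not tested. Tshr f/f replicate 3 of the BMDMs stood apart, with a normalisation factor of 0.738 against 0.993 to 1.11 in the other 5. All genes whose symbol starts with mt-, those of mitochondrial DNA, together made up 5.55 to 6.80% of counts in the livers labelled Tshr f/f. In those labelled Tshr MKO they made up 7.72 to 8.15%.

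Of the 52 members, 42 passed the filter on low counts in BMDMs and 44 in liver. Slc25a41 and Slc25a54 had 0 counts in all 12 libraries. Slc25a21 and Slc25a48 were also at 0 in all BMDMs, and Ucp3 in all livers. Slc25a2, Slc25a18, Slc25a31, Ucp1 and Ucp3 had at most 12 counts in any library. Slc25a34 had at most 7 counts in a BMDM library and Slc25a43 at most 15 in a liver library. The counts of the members together were 0.173 to 0.243% of a BMDM library and 0.329 to 0.451% of a liver library.

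Slc25a25 (ENSMUSG00000026819) lies on the minus strand of chromosome 2 at 32414487 to 32451445 (GRCm38, GENCODE M21). In liver its level was 530, 381 and 580 CPM (read counts scaled to a common library total with TMM factors, separately in each tissue) in the 3 libraries labelled Tshr f/f and 163, 101 and 187 CPM under the Tshr MKO label. Every library labelled Tshr MKO was below every one labelled Tshr f/f. The log2 fold change was −1.73 (SE 0.27), which is 3.31-fold lower, and it ranged from −1.92 to −1.52 with each library left out in turn. In BMDMs its level was 29.8, 14.5 and 57.0 CPM in Tshr f/f and 15.3, 15.5 and 17.5 CPM in Tshr MKO. Here the groups overlapped, because replicate 2 of Tshr f/f lay below all 3 Tshr MKO libraries. The log2 fold change in BMDMs was −1.07 (SE 0.46), and without Tshr f/f replicate 3 it was −0.46.

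**Figure D1:**
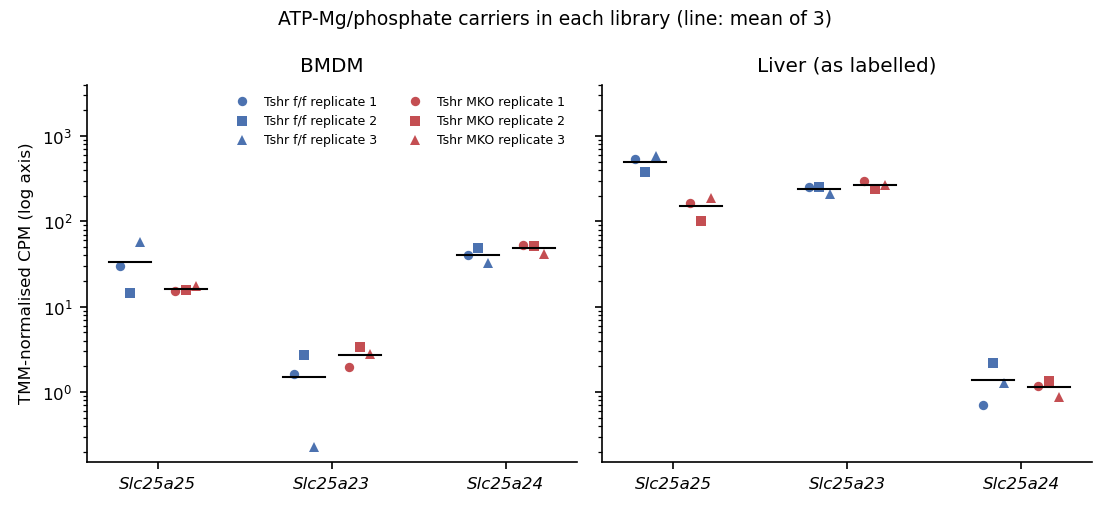
Level of Slc25a25, Slc25a23 and Slc25a24 (TMM-normalised CPM, log axis) in each of 6 BMDM (left) and 6 liver (right) libraries, blue for Tshr f/f and red for Tshr MKO as labelled, with the replicate by symbol and the mean of 3 as a line. In liver the Slc25a25 points of the groups are apart (381 to 580 against 101 to 187 CPM), while those of Slc25a23 and Slc25a24 overlap.

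Set against the rest of the family, Slc25a25 was the carrier with the most reads in the livers labelled Tshr f/f. It ranked 1 among the 44 members tested in all 3 of those libraries, and 10, 13 and 10 in the livers labelled Tshr MKO. On the log2 CPM scale it stood 4.02, 3.62 and 4.22 above the median of the other 43 carriers in the first group and 2.31, 1.78 and 2.57 above it in the second. That median itself lay between 4.89 and 5.04 in all 6 livers. Its genotype difference in liver was 1.68 log2 units below the median of the other 43 carriers (−0.05, quartiles −0.29 and 0.10). None of them was lower than Slc25a25, and 57 of the 15062 genes tested had a lower log2 fold change. In BMDMs it ranked 20, 27 and 8 of 42 in Tshr f/f and 27 in each of the 3 Tshr MKO libraries. Its difference there was 1.18 log2 units below the family median of 0.12 (quartiles −0.11 and 0.41), with 2 carriers and 1114 of the 15372 genes tested lower.

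The other ATP-Mg carriers were measured beside it. Slc25a23, on chromosome 17, was at 254, 249 and 207 CPM under the Tshr f/f label and 296, 238 and 267 CPM under the Tshr MKO label (log2 fold change 0.17, SE 0.13, edgeR adjusted p = 0.69). Slc25a24, on chromosome 3, was low in liver, with 21 to 79 counts in a library, at 0.711, 2.18 and 1.29 CPM against 1.17, 1.36 and 0.885 CPM (log2 fold change −0.29, SE 0.46, edgeR adjusted p = 0.876). The groups overlapped for both genes. Slc25a24 in BMDMs had levels of 40.4, 48.4 and 32.8 CPM in the Tshr f/f group and 52.7, 51.8 and 41.4 CPM in Tshr MKO (0.26, SE 0.18, edgeR adjusted p = 0.455). Slc25a23 was low in BMDMs, at 1.61, 2.70 and 0.230 CPM against 1.98, 3.39 and 2.82 CPM (0.83, SE 0.74, edgeR adjusted p = 0.557, range 0.345 to 1.53 over libraries left out). The lowest of these 6 values, in Tshr f/f replicate 3, came from 6 counts.

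Per length, Slc25a25 made up 58.0% ± 7.3 (SD, n = 3) of the summed TPM of Slc25a23, Slc25a24 and Slc25a25 in the livers with the Tshr f/f label and 26.9% ± 4.9 in those with the label Tshr MKO. TPM here is counts over annotated exon length, scaled to the same total in each library. The share of Slc25a23 was 41.7% ± 7.2 and 72.6% ± 4.8 in the same order. The sum of the 3 genes was 239, 229 and 276 TPM against 171, 131 and 158 TPM. Slc25a25 itself was at 139, 115 and 179 TPM against 45.8, 28.9 and 50.3 TPM. In BMDMs Slc25a24 held 72.2% ± 14.6 of the sum in Tshr f/f and 84.5% ± 2.8 in Tshr MKO, and Slc25a25 26.0% ± 16.0 and 12.4% ± 2.3. The lowest share of Slc25a24 in BMDMs, 56.7%, was that of Tshr f/f replicate 3. Because they contain Slc25a25, these shares are a description.

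**Figure D2:**
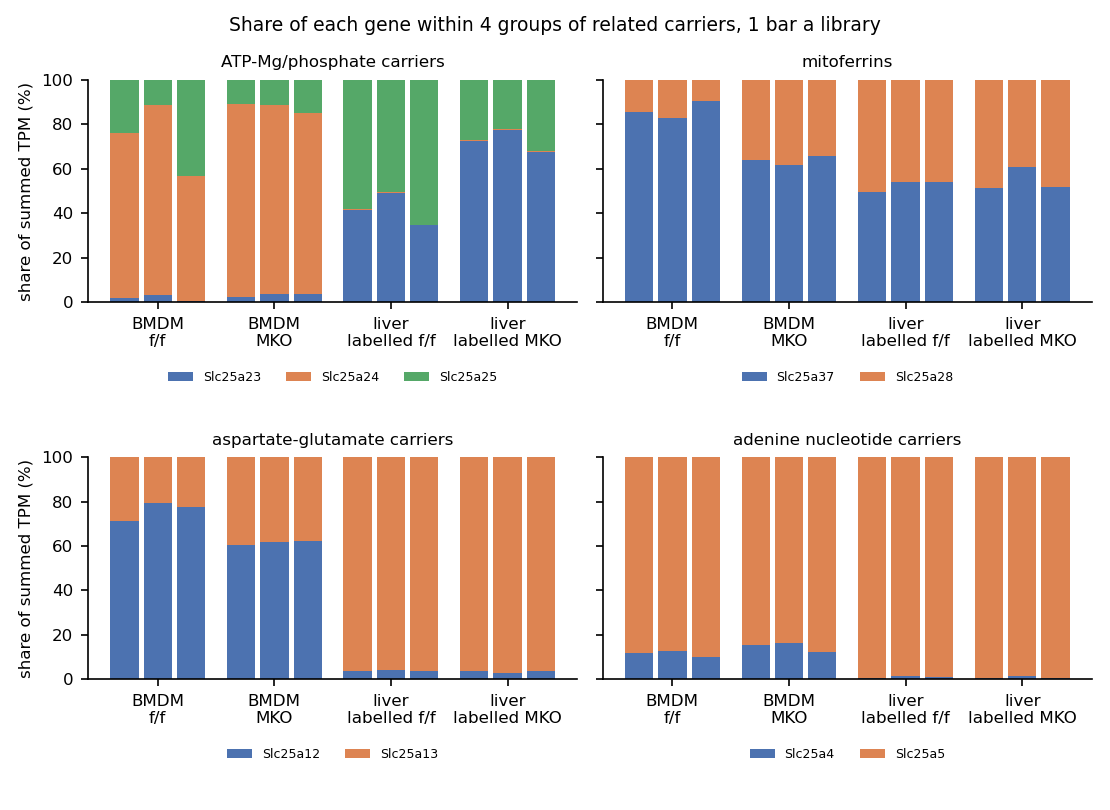
Share (%) of each gene in the summed TPM of 4 groups of related carriers, with 1 stacked bar for each of 12 libraries. Slc25a24 fills most of the BMDM bars and Slc25a23 with Slc25a25 nearly all of the liver bars, Slc25a12 and Slc25a13 trade places between the tissues, and the share of Slc25a37 is smaller in Tshr MKO than in Tshr f/f BMDMs.

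RefSeq lists 3 start sites for Slc25a25, and windows of 300 bases (250 before to 50 after each start, GRCm38.p6, minus strand) are shown because a full cAMP response element is present at only one of them. Slc25a36, a pyrimidine nucleotide carrier that was higher in BMDMs than in liver, is the other member with that element. Capitals mark the element, TGACGTCA.

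Slc25a25, chr2:32451421-32451720: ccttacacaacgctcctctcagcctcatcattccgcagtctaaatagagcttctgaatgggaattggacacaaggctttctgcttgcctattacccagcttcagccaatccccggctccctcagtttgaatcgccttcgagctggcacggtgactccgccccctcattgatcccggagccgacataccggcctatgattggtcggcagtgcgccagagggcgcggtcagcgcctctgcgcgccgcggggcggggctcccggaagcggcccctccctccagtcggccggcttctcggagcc
Slc25a25, chr2:32431102-32431401: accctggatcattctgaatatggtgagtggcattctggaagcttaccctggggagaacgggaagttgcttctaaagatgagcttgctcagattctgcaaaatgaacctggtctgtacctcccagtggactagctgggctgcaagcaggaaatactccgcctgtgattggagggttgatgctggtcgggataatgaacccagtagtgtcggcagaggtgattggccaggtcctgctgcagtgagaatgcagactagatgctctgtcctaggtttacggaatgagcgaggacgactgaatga
Slc25a25, chr2:32424017-32424316: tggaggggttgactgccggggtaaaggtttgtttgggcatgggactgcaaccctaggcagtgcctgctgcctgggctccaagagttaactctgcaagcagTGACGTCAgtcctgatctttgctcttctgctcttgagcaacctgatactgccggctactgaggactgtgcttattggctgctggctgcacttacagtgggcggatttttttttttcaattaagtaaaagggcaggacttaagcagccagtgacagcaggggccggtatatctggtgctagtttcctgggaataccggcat
Slc25a36, chr9:97110992-97111291: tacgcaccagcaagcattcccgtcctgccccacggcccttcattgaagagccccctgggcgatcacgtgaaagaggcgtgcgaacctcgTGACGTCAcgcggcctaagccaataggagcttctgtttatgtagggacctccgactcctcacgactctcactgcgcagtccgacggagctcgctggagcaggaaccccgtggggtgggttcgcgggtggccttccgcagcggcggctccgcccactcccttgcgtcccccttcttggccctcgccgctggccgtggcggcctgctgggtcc

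The windows of Slc25a25 differed in base composition. The first held 63% G and C and 25 CG pairs, the second 51.3% and 7, and the third, with the element, 52.3% and 6. The element began 150 bases before the start in Slc25a25 and 161 before it in Slc25a36, and it was present in 588 of all 32851 windows (1.79%). Windows were listed for 41 of the 52 members (52 windows). An EGR1 site (GCGTGGGCG, 0.612% of all windows) was present in windows of Slc25a1, Slc25a14 and Slc25a39, an AP-1 site (TGANTCA, 7.81%) in Slc25a11 and Slc25a13, and an E-box (CACGTG, 7.15%) in 7 members. Both strands were read, and the E-box of Slc25a13 overlaps its AP-1 site. These 4 motifs are reported after a wider search of the same windows. Counts per gene do not show which start was used.

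In BMDMs, 0 of the other 41 carriers tested passed an adjusted p of 0.05 in edgeR's quasi-likelihood test, as did 0% of all 15372 genes. At an unadjusted p under 0.05, 4 were higher in Tshr MKO (9.76% of members, 7.73% of all genes) and 4 lower (9.76%, 10.2% of all genes). DESeq2 called 3 at an adjusted p under 0.05, namely Slc25a37, Slc25a33 and Slc25a12 (7.32% of members, 7.93% of all genes). The groups did not overlap for 10 carriers that were higher (24.4%, 14.8% of all genes) and 4 that were lower (9.76%, 14.0% of all genes). The median log2 fold change of the 41 was 0.12, and that of all genes was 0.01. The number higher at an unadjusted p under 0.05 was 10 without Tshr f/f replicate 2 (24.4% of members, 10.8% of all genes). It was 1 without Tshr MKO replicate 1 (2.44%, 3.55% of all genes), 2 without replicate 2 (4.88%, 4.35%) and 1 without replicate 3 (2.44%, 5.96%). In the fit of all 12 libraries it was 7 (15.9%, 9.48% of all genes), and 2 passed an adjusted p of 0.05 (4.55%, 0.870%).

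The iron carriers showed the lowest value. Slc25a37 encodes mitoferrin 1, which brings iron into the matrix for haem and iron-sulfur clusters, and its level was 392, 367 and 652 CPM in BMDMs from Tshr f/f mice and 99.1, 86.7 and 132 CPM in Tshr MKO BMDMs. The lowest Tshr f/f library had more than the highest Tshr MKO library. Its log2 fold change was −2.15 (SE 0.30, edgeR adjusted p = 0.218), 4.45-fold lower, with a range of −2.34 to −1.85 over libraries left out. The adjusted p was 0.0127 in a fit of all 12 libraries and 3.71e-08 in DESeq2. Slc25a28, mitoferrin 2, was at 41.9, 46.5 and 42.8 CPM against 34.9, 33.5 and 42.7 CPM (−0.24, SE 0.13, edgeR adjusted p = 0.376). The share of Slc25a37 in the TPM of both mitoferrins was 86.3% ± 3.8 in Tshr f/f and 63.7% ± 2.0 in Tshr MKO BMDMs, and 52.6% ± 2.7 and 54.8% ± 5.4 in the livers.

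Among nucleotide carriers, Slc25a33, which moves pyrimidine nucleotides, was at 7.03, 11.3 and 12.4 CPM in the Tshr f/f group and 4.13, 3.17 and 4.51 CPM in Tshr MKO BMDMs. All 3 Tshr f/f values were above all 3 Tshr MKO values. The log2 fold change was −1.38 (SE 0.28, edgeR adjusted p = 0.218, and 0.0335 with all 12 libraries fitted). Of the 10 members of this group tested, 7 were above 0 and 3 below, with a median of 0.31. Slc25a42, a carrier of coenzyme A, was at 1.28, 1.03 and 0.230 CPM against 0.731, 1.36 and 1.98 CPM (0.66, SE 0.66), so the groups overlapped.

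Of the 9 amino acid carriers tested in BMDMs, 5 had a log2 fold change above 0 and 4 below. Slc25a22, a glutamate carrier, was at 51.8, 21.8 and 73.7 CPM in the Tshr f/f group and 28.3, 23.5 and 21.1 CPM in Tshr MKO (−1.01, SE 0.42, edgeR adjusted p = 0.278). Replicate 2 of Tshr f/f lay within the Tshr MKO values, and without Tshr f/f replicate 3 the log2 fold change was −0.60. Slc25a29, a carrier of basic amino acids, was at 0.452, 1.17 and 0.614 CPM against 0.548, 0.373 and 0.410 CPM (−0.75, SE 0.47, edgeR adjusted p = 0.422), and the groups overlapped. Its log2 fold change ran from −0.99 to −0.25 over libraries left out. The aspartate-glutamate carriers of the malate-aspartate shuttle had values of opposite sign. Slc25a12 was at 60.6, 60.1 and 56.8 CPM against 41.5, 42.6 and 46.9 CPM (−0.44, SE 0.11, edgeR adjusted p = 0.218), while Slc25a13 was at 12.6, 8.06 and 8.56 CPM against 14.2, 13.6 and 14.6 CPM (0.54, SE 0.21, edgeR adjusted p = 0.262). Slc25a12 made up 76.1% ± 4.2 of the TPM of this pair in Tshr f/f and 61.5% ± 1.1 in Tshr MKO BMDMs.

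Several carriers had a log2 fold change above 0 in BMDMs without passing the adjusted threshold. Ucp2, an uncoupling protein that moves four-carbon acids, was at 272, 266 and 160 CPM in the Tshr f/f group and 355, 310 and 510 CPM in Tshr MKO (0.75, SE 0.29, edgeR adjusted p = 0.263). Slc25a10, the dicarboxylate carrier for malate and succinate, was at 24.9, 17.1 and 14.4 CPM against 31.8, 29.2 and 33.6 CPM (0.75, SE 0.22, edgeR adjusted p = 0.222). In both genes the groups did not overlap. Slc25a45 was at 30.3, 34.3 and 15.2 CPM against 43.1, 39.0 and 44.8 CPM (0.67, SE 0.29, edgeR adjusted p = 0.294), and Tshr f/f replicate 3 was its lowest library. Slc25a27, an uncoupling protein relative, was at 0.402, 1.28 and 0.192 CPM against 1.02, 1.04 and 1.13 CPM (0.73, SE 0.66, edgeR adjusted p = 0.562), with overlap and a range of 0.34 to 1.80 over libraries left out. Among the abundant carriers, Slc25a5, the main adenine nucleotide translocase, had a log2 fold change of −0.03 (SE 0.17) and Slc25a3, the phosphate carrier, of −0.01 (SE 0.15).

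**Figure D3:**
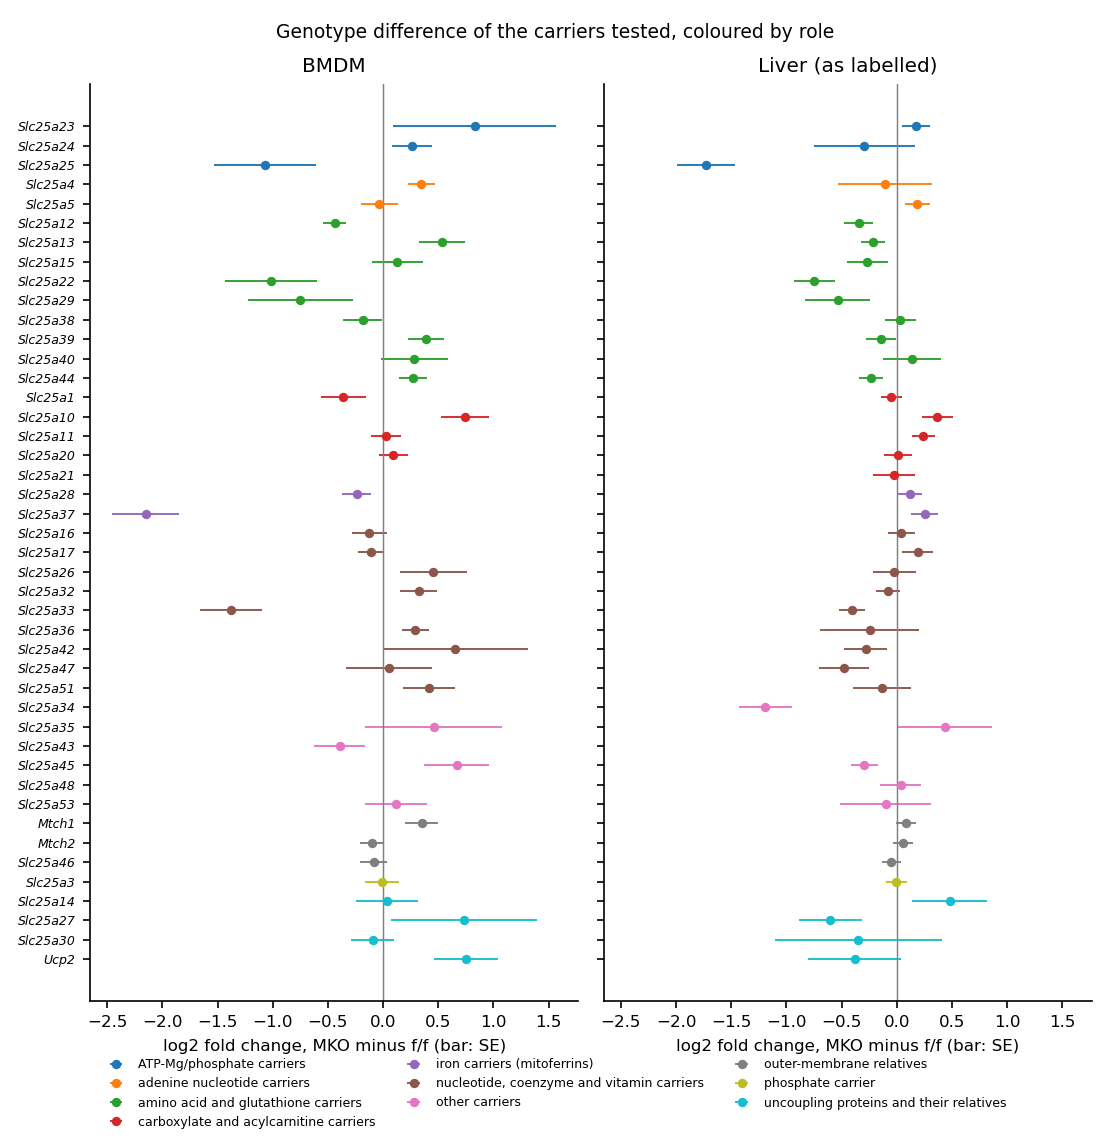
Log2 fold change (Tshr MKO minus Tshr f/f as labelled, with SE as a bar) of the carriers in BMDMs (left, 41 shown) and liver (right, 43 shown), on 1 scale and coloured by role. Slc25a37, Slc25a33, Slc25a25 and Slc25a22 lie at or below −1.01 in BMDMs, and Slc25a25 and Slc25a34 below −1 in liver, while most other carriers lie within 0.8 of 0.

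In liver, 0 of the other 43 carriers tested passed an adjusted p of 0.05 in edgeR, as did 0% of all 15062 genes. At an unadjusted p under 0.05, 5 were lower in the livers labelled Tshr MKO (11.6% of members, 5.18% of all genes) and 1 higher (2.33%, 5.27% of all genes). DESeq2 called 2 of the 42 to which it gave an adjusted p, Slc25a34 and Slc25a22 (4.76%, 2.04% of all genes). The groups did not overlap for 7 that were lower (16.3%, 7.74% of all genes) and 2 that were higher (4.65%, 9.60% of all genes). The median log2 fold change of the 43 was −0.05, and that of all genes was −0.01. The number lower at an unadjusted p under 0.05 was 10 when replicate 2 with the Tshr f/f label was left out (22.7% of members, 7.57% of all genes). It was 3 when replicate 2 or 3 with the Tshr MKO label was left out (6.82% of members each, 4.34% and 3.81% of all genes). In the fit of all 12 libraries 2 were lower (4.55%, 3.25% of all genes) and 0 higher (3.86% of all genes). With the first letter of the library ID as a term 3 were lower (6.98%, 4.43%) and 3 higher (6.98%, 5.21%).

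Slc25a34, a carrier whose substrate is not settled, was next to Slc25a25 in the liver comparison. Its level was 17.7, 11.5 and 14.1 CPM under the Tshr f/f label and 4.75, 6.26 and 8.00 CPM under the Tshr MKO label, without overlap. The log2 fold change was −1.19 (SE 0.24, edgeR adjusted p = 0.315, and 0.00175 in DESeq2), with −1.39 to −1.02 over libraries left out. Slc25a22 was at 422, 280 and 416 CPM against 255, 202 and 209 CPM, again without overlap (−0.75, SE 0.19, edgeR adjusted p = 0.334, and 0.0152 in DESeq2). It was thus lower in the Tshr MKO label in both tissues, though its BMDM groups overlapped.

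Slc25a33 and Slc25a12 had lower values in the Tshr MKO label in liver as well as in BMDMs, without overlap in either tissue. In liver Slc25a33 was at 15.2, 14.0 and 16.4 CPM against 11.3, 10.8 and 12.3 CPM (−0.41, SE 0.11, edgeR adjusted p = 0.347). Slc25a12 was at 18.3, 17.0 and 17.2 CPM against 15.7, 11.7 and 14.0 CPM (−0.34, SE 0.13, edgeR adjusted p = 0.437). Slc25a45 was at 32.2, 25.6 and 27.2 CPM against 25.6, 21.7 and 21.9 CPM, the last of the 5 that were lower at an unadjusted p under 0.05, with groups that overlapped. Of the 9 amino acid carriers tested in liver 7 were below 0, with a median of −0.23. Slc25a13, the main aspartate-glutamate carrier of liver, was at 255, 209 and 231 CPM against 206, 195 and 198 CPM (−0.21, SE 0.11, edgeR adjusted p = 0.526). Slc25a15, the ornithine carrier of the urea cycle, was at 441, 317 and 343 CPM against 372, 257 and 287 CPM (−0.27, SE 0.19, edgeR adjusted p = 0.662), and its groups overlapped.

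Slc25a47, a carrier found mainly in liver, and Slc25a29 start 162 bases apart on opposite strands of chromosome 12. Slc25a47 was at 514, 333 and 478 CPM under the Tshr f/f label and 372, 238 and 341 CPM under the Tshr MKO label (−0.48, SE 0.23, edgeR adjusted p = 0.507). The highest Tshr MKO library was above the lowest Tshr f/f library. Slc25a29 was at 3.49, 2.01 and 2.29 CPM against 1.70, 1.71 and 1.95 CPM (−0.54, SE 0.29, edgeR adjusted p = 0.569), without overlap and with −0.69 to −0.28 over libraries left out. Slc25a27 was at 2.23, 3.14 and 3.88 CPM against 1.79, 2.26 and 2.05 CPM (−0.60, SE 0.28, edgeR adjusted p = 0.507), with overlap.

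Higher values in the livers labelled Tshr MKO were smaller. Slc25a10 was at 145, 154 and 123 CPM against 193, 152 and 200 CPM (0.37, SE 0.14, edgeR adjusted p = 0.44), and the groups overlapped. Slc25a14, a relative of the uncoupling proteins, was at 1.12, 0.80 and 1.49 CPM against 1.76, 1.67 and 1.31 CPM (0.48, SE 0.34, edgeR adjusted p = 0.678), with overlap. Slc25a35 was at 0.711, 0.744 and 0.498 CPM against 0.531, 1.17 and 0.956 CPM (0.44, SE 0.43, edgeR adjusted p = 0.769), and 31.3% of its exon bases are shared with Rangrf on the other strand. Slc25a37 in liver was at 25.6, 30.6 and 28.1 CPM against 31.1, 38.4 and 31.0 CPM (0.25, SE 0.12, edgeR adjusted p = 0.514), so the direction was opposite to that in BMDMs. Slc25a30 had a wide spread within both groups, at 31.9, 15.9 and 83.4 CPM against 61.3, 11.1 and 30.6 CPM.

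**Figure D4:**
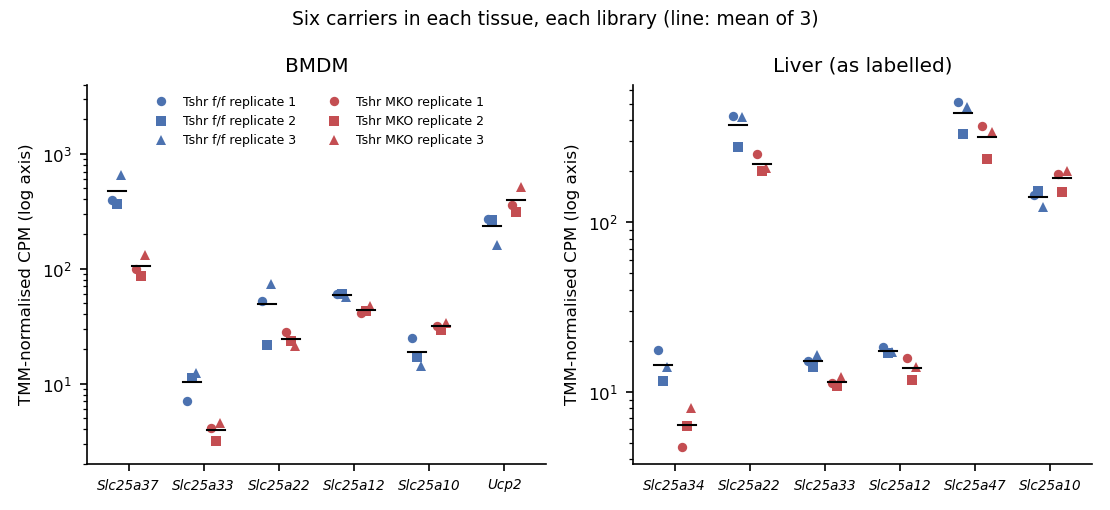
Level (TMM-normalised CPM, log axis) of 6 carriers in each BMDM library (left) and 6 in each liver library (right), blue for Tshr f/f and red for Tshr MKO as labelled, with the mean of 3 as a line. Slc25a37 and Slc25a33 in BMDMs and Slc25a34 and Slc25a22 in liver have groups that do not overlap.

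The difference between the genotype differences of liver and BMDMs was tested as an interaction over all 12 libraries. Of the 44 members tested with Slc25a25 left aside, 0 passed an adjusted p of 0.05 in edgeR, against 1 of 17246 genes (0.00580%). Of the 44, Slc25a21, Slc25a34 and Slc25a48 did not pass the filter in BMDMs and Slc25a43 did not in liver, so the genotype difference of these 4 in that tissue rests on few or no counts, and 40 passed in each tissue. DESeq2 called 4 of the 43 carriers to which it gave an adjusted p, namely Slc25a37, Slc25a13, Slc25a44 and Slc25a34 (9.30%, 6.22% of 12874 genes). The interaction of Slc25a37 was 2.41 (SE 0.34, edgeR adjusted p = 0.0809). It passed at 0.0166 to 0.0315 in edgeR when any 1 of the 3 Tshr f/f BMDM libraries was left out. In those fits 0.0901 to 1.93% of all genes passed. Slc25a33 had an interaction of 0.97 (SE 0.29, edgeR adjusted p = 0.219) and Slc25a13 of −0.74 (SE 0.24, edgeR adjusted p = 0.231). That of Slc25a34 rests on BMDM counts of at most 7 and is not read, since it ran from −6.27 to −2.32 with each library left out. For Slc25a25 the values side by side were −1.73 in liver and −1.07 in BMDMs, with an interaction of −0.66 (SE 0.58) that ran from −1.28 to −0.29 with each library left out.

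Between tissues the carriers differed far more than between genotypes. Liver and BMDMs here differ in cell type, culture, TSH, diet and insulin at once, which cannot be told apart. In the 6 Tshr f/f libraries, 25 of 45 members tested were higher in liver at an adjusted p under 0.05 and at least 2-fold (55.6%, 28.6% of all 15931 genes), and 5 were higher in BMDMs (11.1%, 23.8% of all genes). Of these, Slc25a21, Slc25a34 and Slc25a48 did not pass the filter in BMDMs and Slc25a43 did not in liver, so they entered through the tissue where they are high. Among genes that passed in each tissue, a restriction chosen after seeing the data, the counts were 22 and 4 of 41 (53.7% and 9.76%, beside 24.3% and 22.3% of all genes). With library sizes alone in place of TMM factors, which moved the median of all genes from 0.05 to −0.78, the counts were 18 and 10, with 18.9% and 40.0% of all genes. All 18 and 5 of the 10 were among the TMM calls. In the 6 Tshr MKO libraries the counts were 23, all among the 25, and 6, of which 4 were among the 5, beside 29.5% and 26.0% of all genes. All of these counts of members higher in liver include Slc25a25, which was picked from its counts, so its call is a description.

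Slc25a25 was among those higher in liver, with a log2 difference of 4.77 (SE 0.58) in the Tshr f/f libraries and 4.09 (SE 0.25) in the Tshr MKO libraries, given as a description because the gene was picked from these counts. Per length its mean was 145 TPM ± 32 in livers labelled Tshr f/f and 11.7 TPM ± 5.2 in Tshr f/f BMDMs. Slc25a23 was 8.15 log2 units higher in liver (SE 0.89, edgeR adjusted p = 0.000488), whereas Slc25a24 was lower there, with a log2 difference of −3.95 (SE 0.44, edgeR adjusted p = 0.000513).

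Several members with a high liver level were low or at 0 in BMDMs. Slc25a48 was at 8.09, 9.03 and 8.09 TPM in the livers with the Tshr f/f label and 0 in BMDMs, at least 106-fold higher with 3 counts per library as the floor. Slc25a21, which carries 2-oxoadipate from lysine breakdown, was at 3.26, 4.77 and 3.20 TPM and at least 68.3-fold higher. Slc25a47 was at 356, 265 and 389 TPM in liver against 0.684, 1.16 and 0.715 TPM in BMDMs (log2 difference 9.90, SE 0.37, edgeR adjusted p = 2.44e-05). Slc25a34 was at 13.7, 10.3 and 12.9 TPM against 0, 0 and 0.133 TPM, and its BMDM value came from 4 counts in 1 library. Slc25a42 was at 48.2, 33.6 and 55.3 TPM against 0.668, 0.605 and 0.0890 TPM (7.99, SE 0.66, edgeR adjusted p = 0.000174). Slc25a15 followed with 6.25 (SE 0.30, edgeR adjusted p = 3.6e-05) and Slc25a13 with 5.46 (SE 0.28, edgeR adjusted p = 3.8e-05).

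Those higher in BMDMs formed a shorter list. Besides Slc25a24 and Slc25a43 it held Slc25a37 (−3.17, SE 0.29, edgeR adjusted p = 0.000252), Slc25a4 (−2.92, SE 0.40, edgeR adjusted p = 0.00114) and Slc25a36 (−2.62, SE 0.44, edgeR adjusted p = 0.00273). Slc25a35 had a log2 difference of −1.68 (SE 0.69, edgeR adjusted p = 0.0716). Slc25a43 was at 5.69, 7.30 and 5.55 TPM in Tshr f/f BMDMs and 0, 0.552 and 0.136 TPM in liver. Because it entered through BMDMs alone, its log2 difference of −3.47 is a description, and it ran from −5.26 to −2.92 with each library left out and lost the adjusted threshold without liver replicate 3 with the Tshr f/f label. Slc25a4, the translocase of heart and muscle, was at 68.2, 78.2 and 42.4 TPM against 1.52, 5.07 and 3.74 TPM, and Slc25a36 at 16.3, 20.8 and 12.3 TPM against 0.416, 1.63 and 1.33 TPM. For Slc25a37 the tissue difference was −0.79 (SE 0.17, edgeR adjusted p = 0.00526) in the Tshr MKO libraries, below 2-fold.

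Pairs of carriers of like function were compared between the tissues. Slc25a13 made up 96.2% ± 0.2 of the TPM of Slc25a12 and Slc25a13 in the livers with the Tshr f/f label and 23.9% ± 4.2 in Tshr f/f BMDMs. Of the adenine nucleotide carriers Slc25a4 and Slc25a5, Slc25a4 held 11.5% ± 1.4 of the TPM in Tshr f/f BMDMs and 1.03% ± 0.48 in livers labelled Tshr f/f, so Slc25a5 held most of it in both tissues. No test was run on these shares, since the pairs were picked after their values were seen.

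**Figure D5:**
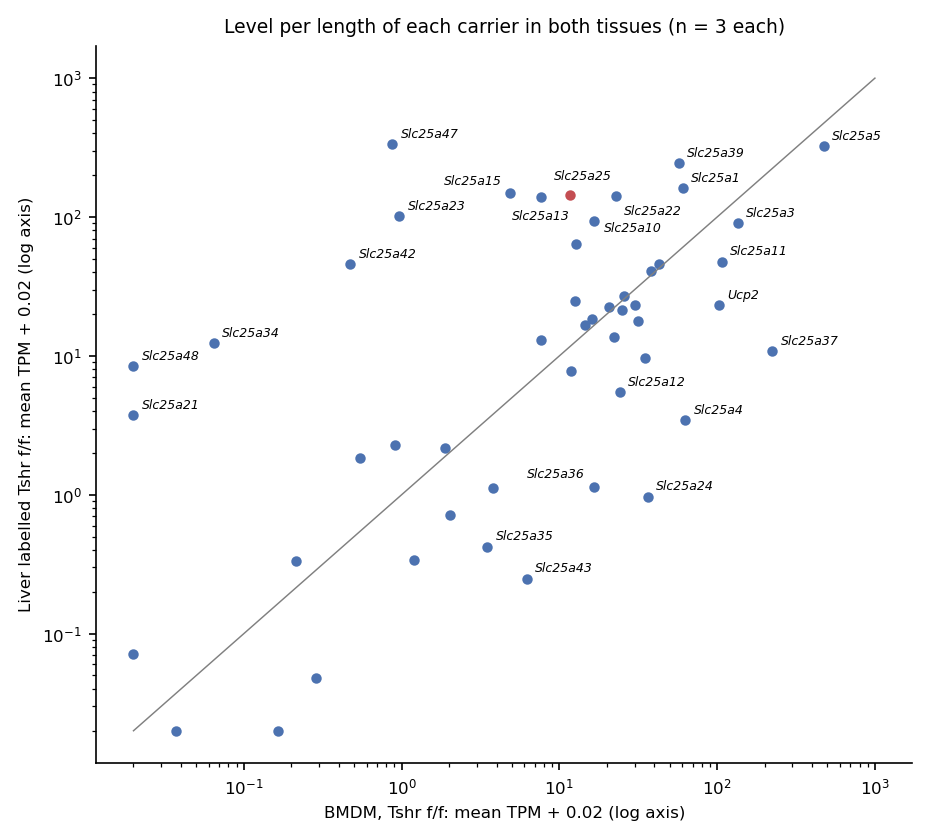
Mean TPM plus 0.02 (log axes, n = 3 libraries each) of the members in Tshr f/f BMDMs (horizontal) and livers labelled Tshr f/f (vertical), without the 2 members at 0 in all libraries, with Slc25a25 in red and the line of equal levels. Slc25a47, Slc25a23, Slc25a42 and Slc25a48 lie far above the line and Slc25a37, Slc25a4 and Slc25a24 far below it.

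Ordered by level per length, Slc25a5 led in Tshr f/f BMDMs with 475 TPM ± 81 (SD, n = 3), 27.4% of the summed TPM of all members. Slc25a37 followed with 223 ± 25, then Slc25a3 with 135 ± 16, Slc25a11, the oxoglutarate-malate carrier, with 107.4 ± 30.7 and Ucp2 with 103 ± 44. The ranges of the last 3 over the Tshr f/f libraries overlapped. Slc25a4, Slc25a1, Slc25a39, Slc25a51 and Slc25a44 came next, from 62.9 down to 37.9 TPM. These 10 held 75.3% of the members' TPM.

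In livers labelled Tshr f/f the level was spread over more carriers. Slc25a47 led with 337 TPM ± 64 and Slc25a5 had 323 ± 24, and their ranges overlapped. Slc25a39, which carries glutathione, had 245 ± 28 and Slc25a1, the citrate carrier, 161 ± 7. Slc25a15, Slc25a25, Slc25a22 and Slc25a13 lay close together, at 148 ± 14, 145 ± 32, 142 ± 29 and 139 ± 8, with overlapping ranges. Slc25a23 with 102.1 ± 8.6 and Slc25a10 with 93.1 ± 11.0 completed the first 10, which held 74.5%. The sum over the members was 2463 TPM ± 158 in the livers with the Tshr f/f label and 2105 ± 173 in those labelled Tshr MKO. It includes Slc25a25, at a mean of 145 and 41.6 TPM in the same order. In BMDMs the sum was 1734 TPM ± 323 in Tshr f/f and 1851 ± 76 in Tshr MKO.

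Genes that work with the carriers were counted from lists written with earlier results of these data known. Counts at an unadjusted p under 0.05 stand beside 5.27% higher and 5.18% lower of all genes in liver, and 7.73% and 10.2% in BMDMs. Over all genes, 7400 of 15062 had a log2 fold change above 0 in liver and 7802 of 15372 in BMDMs. Of 23 other mitochondrial transporters, 21 were tested in liver, with 2 higher and 1 lower at an unadjusted p under 0.05, and 23 in BMDMs, with 0 higher and 2 lower. The gene lowest in liver was Slc8b1, the sodium-calcium-lithium exchanger that releases calcium from the matrix, at 61.3, 62.99 and 58.2 CPM against 46.9, 37.9 and 43.6 CPM (log2 fold change −0.51, SE 0.10, edgeR adjusted p = 0.315). Tspo, an outer membrane protein, was the lowest in BMDMs, at 88.95, 101.9 and 131 CPM against 58.8, 55.7 and 62.5 CPM (−0.86, SE 0.17, edgeR adjusted p = 0.218). The groups did not overlap for either gene.

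The machinery that imports carriers had 16 genes tested. In liver their log2 fold changes ran from 0.00 for Tomm20 to 0.53 for Agk (median 0.22), with 2 higher at an unadjusted p under 0.05, and in BMDMs 7 were above 0 (median −0.05), with 0 higher and 1 lower. Of 17 citric acid cycle enzymes in liver, 14 were above 0 (median 0.13), with 6 higher and 1 lower at that limit. Sdhb, the iron-sulfur subunit of succinate dehydrogenase, was at 92.6, 101 and 89.6 CPM under the Tshr f/f label and 140, 120 and 132 CPM under the Tshr MKO label (0.47, SE 0.10, edgeR adjusted p = 0.315). In BMDMs 12 of the 17 were below 0 (median −0.12), with 2 lower and 0 higher at that limit. The 13 protein-coding genes of mitochondrial DNA had a median of 0.38 in liver, with 8 higher and 0 lower at that limit. Their median in BMDMs was 0.10, with 0 past that limit.

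Enzymes that use what the carriers bring numbered 19 in liver, of which 15 were below 0 (median −0.09), with 2 higher and 1 lower at an unadjusted p under 0.05. In BMDMs 15 were tested, of which 10 were above 0 (median 0.11), with 3 higher and 1 lower at that limit. Otc, ornithine transcarbamylase of the urea cycle, was at 234, 272 and 209 CPM under the Tshr f/f label and 386, 308 and 337 CPM under the Tshr MKO label (0.53, SE 0.14, edgeR adjusted p = 0.334). Cpt1a, which makes the acylcarnitines that Slc25a20 imports, was at 1018, 696 and 912 CPM against 637, 567 and 634 CPM (−0.52, SE 0.16, edgeR adjusted p = 0.37). In BMDMs Cpt1a was at 142, 90.3 and 73.7 CPM against 182, 176 and 179 CPM (0.81, SE 0.26, edgeR adjusted p = 0.23). Slc25a20 itself had a log2 fold change of 0.01 (SE 0.13) in liver and 0.09 (SE 0.13) in BMDMs. Ass1, argininosuccinate synthase, was at 178, 143 and 345 CPM in BMDMs from Tshr f/f mice and 54.9, 49.5 and 51.5 CPM in Tshr MKO BMDMs (−2.09, SE 0.35, edgeR adjusted p = 0.218), without overlap. No gene of these lists passed an adjusted p of 0.05 in either genotype comparison in edgeR.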

How the data were processed

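The authors deposited a table of read counts per gene for 12 libraries (strand-specific TruSeq, Illumina NovaSeq), with reads trimmed by Skewer and checked by FastQC 0.11.2. The submitters' processing notes name STAR, StringTie and mm10. The strand setting of the counting is not given in the sources used here, so reads of overlapping genes on opposite strands may not have been separated. Slc25a25 shares 4.8% of its exon bases with Naif1 on the other strand, which had 5.37% as many counts. Slc25a11 shares 8.9% with Rnf167, which had 45.4% as many counts as Slc25a11. The part of such reads in the values was not tested. One label of the extraction calls the material thymic, against the tissue labels. The study tested counts with the MARS model of DEGseq, which has no term for spread between libraries and was not used.

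Counts were tested with edgeR 4.0.16 in R 4.3.3 (robust quasi-likelihood, TMM factors, filterByExpr), with Benjamini-Hochberg adjustment over all genes tested. The SE is the log2 fold change over the square root of F. The comparisons were genotype in each tissue (6 libraries), liver against BMDM in Tshr f/f (6) and the interaction (12). TPM used union exon lengths of GENCODE M21, which holds 55154 of the 55335 genes. Promoters are those of RefSeq, GRCm38.p6. Genes named are Slc25a25 and its relatives, the 5 members highest and 5 lowest in each genotype comparison, the 6 in each direction between tissues and the 10 highest per tissue. Other genes were chosen after their values were seen. The values of 1 gene are not reported here, though it is kept in the counts. The members and lists were chosen with earlier results of these data known. Alternatives were RLE and upper-quartile factors, other filters, all 12 libraries, a replicate block, DESeq2 1.42.0, library-ID letter and each library left out. The scripts were tested on simulated data. Tables were made in python 3.11.15 (pandas 2.3.3, numpy 2.4.6), and figures in matplotlib 3.10.9.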

Additional observations from a re-analysis of the deposited data

Results flagged for a closer look

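In 3 carriers every library labelled Tshr MKO lay on one side of every Tshr f/f library in BMDMs and on the other side in liver (7.50% of the 40 carriers tested in both tissues, 2.60% of all 13244 genes). They were Slc25a37 (log2 fold change −2.15 in BMDMs and 0.25 in liver, interaction 2.41, edgeR adjusted p = 0.0809), Slc25a13 (0.54 and −0.21, interaction −0.74, edgeR adjusted p = 0.231) and Slc25a44, a carrier of branched-chain amino acids (0.27 and −0.23, interaction −0.51, edgeR adjusted p = 0.237). None of the 3 interactions passed an adjusted p of 0.05 in edgeR, and each did in DESeq2. The 3 were picked because their groups separate in opposite directions, so their interactions are a description. With the liver headings exchanged, these 3 would separate in the same direction in both tissues. Slc25a12 and Slc25a33 would then separate in opposite directions. The share of all genes for that case was not counted. Groups of 3 libraries are too small for a test of single outlying libraries.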

How the results depend on the processing

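Shares of all genes called in the same fit stand in parentheses. With all 12 libraries fitted together, 2 carriers passed an adjusted p of 0.05 between BMDM genotypes (0.870%), 7 were higher at an unadjusted p under 0.05 (9.48%), and in liver 0 were higher (3.86%) and 2 lower (3.25%). DESeq2 gave 3 adjusted calls (7.93%) and 8 higher (10.5%) in BMDMs, 2 adjusted calls in liver (2.04%) and 4 interactions (6.22%). Liver had 2 higher without a filter on low counts (4.43%), and 3 higher (5.21%) and 3 lower (4.43%) with the first letter of the library ID as a term. With library sizes alone, a setting chosen after seeing the data, 10 carriers were higher in BMDMs than in liver (40.0%). The cause of these shifts was not tested.

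Over libraries left out in turn, BMDM carriers higher ranged from 1 to 10 (3.55 to 10.8% of all genes) and the carriers' median from 0.032 to 0.266. Liver carriers higher ranged from 0 to 2 (3.12 to 6.35%) and lower from 3 to 10 (3.45 to 7.57%). The carriers' median in liver ranged from −0.077 to 0.008. Interactions at an adjusted p under 0.05 in edgeR ranged from 0 to 2 (0 to 1.93%). Slc25a24 in liver ranged from −0.61 to 0.18 and changed sign without liver Tshr f/f replicate 2. Where such a fit left 2 libraries in a group, the spread was pooled over groups.

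Replicate numbers are shared by the genotypes. Deviations of log2 CPM from the group mean were correlated between libraries of the genotypes. For same-numbered libraries the correlation was 0.096, 0.013 and 0.102 in BMDMs and −0.056, 0.217 and −0.021 in liver. For libraries of different number it ran from −0.191 to 0.153 in BMDMs and from −0.291 to 0.281 in liver. With 3 libraries in a group these values cannot show whether same-numbered libraries were paired. With a replicate block, 0 carriers passed an adjusted p of 0.05 in edgeR in either genotype comparison. At an unadjusted p under 0.05, 0 were higher in liver (4% of all genes) and 6 lower (14% of members, 4.15% of all genes). In BMDMs 4 were higher (9.76%, 7.14% of all genes) and 4 lower (9.76%, 8.7% of all genes). At this depth a difference between groups with 3 or fewer counts per library was not detectable.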
